A study of Homo sapiens with 4 samples.

Results

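S phase cells made up 172 of the 3212 cells kept from scRNA-seq of HCEC 1CT, human colonic epithelial cells that were made immortal by adding TERT and CDK4. They were chosen by the share of a cell's UMIs (distinct mRNA molecules counted per gene and cell barcode) that came from 6 genes of DNA synthesis, RRM2, TYMS, HELLS, PCNA, CLSPN and GINS2. The top 10% of the cells of each library by this share were taken, and those with 3 or more UMIs of CCNB1, the cyclin of mitotic entry, were set aside. Kept cells had at least 2000 genes detected and under 5% of their UMIs from mitochondrial genes. Members were 26 of 765 cells in shScr and 22 of 581 in shAPC at day 3, and 56 of 942 and 68 of 924 at day 7. The remaining kept cells of the same libraries, those set aside included, served for comparison.

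The study knocked down APC, the tumour suppressor that holds beta-catenin in check, with a stably expressed shRNA (shAPC) and compared it with a scrambled shRNA (shScr). Cells of both kinds were selected with puromycin and harvested 3 or 7 days after transduction, which gave 4 groups with 1 library each. All groups derive from 1 line that carries added TERT and CDK4, the latter a kinase that itself drives entry into S phase. The labels call the virus retroviral and the methods lentiviral, and the sources also differ on the version of the 10x Genomics kit. In S phase cells APC had 17 UMIs (21.6 CPM, UMIs of a gene scaled to a common total) in shScr and 5 (4.63 CPM) in shAPC at day 3, and 39 (25.1 CPM) and 18 (9.73 CPM) at day 7. The log2 ratios of shAPC to shScr were -2.22 (-4.02 to -0.73) and -1.37 (-2.26 to -0.53), with 95% intervals of counting error, so the knockdown was visible in these cells, although at day 3 the ratio came to 0.80 from 4 and 3 UMIs when cells were thinned to 5000 UMIs. The counting software was version 3.0.2 in the file headers of both shScr libraries and 3.0.0 in those of both shAPC libraries, so version and shRNA cannot be told apart. Pairs of libraries shared 2 to 25 cell barcodes, and at most 1 among kept cells.

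Before S phase a cell loads the MCM helicase onto replication origins. E2F factors, released from the RB protein by cyclin-dependent kinases, then switch on genes for nucleotide supply, helicase activation, DNA polymerases and histones. During S phase each origin fires once, new DNA is wrapped onto newly made histones, and cohesin rings tie the sister chromatids together. Genes of G2 and mitosis follow, many of them through promoters with a CHR element and CCAAT boxes, which NF-Y binds. In the colon most division takes place in the crypts, where Wnt signals and APC set how many cells keep cycling.

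Some promoters of genes that marked these cells are printed here with the E2F words that are counted further on. Of the 15 genes with the largest rises in S phase cells, 12 had a promoter in the RefSeq table (GRCh38.p14), and 6 of those held an E2F word in the 100 bases before the transcription start. The share of all promoters with such a word in this window was not counted, so the count has no background. The words searched, on either strand, were TTCCCGC, then with a changed centre TTCGCGC, the form TTGCCGC and as the last of the set TTGGCGC. The first 5 of these 6 are printed 5′ to 3′ on the strand of the gene, in lower case with the E2F words in capitals, and each window ends at the base before the start.
E2F1 (chr20:33686386-33686485, minus strand): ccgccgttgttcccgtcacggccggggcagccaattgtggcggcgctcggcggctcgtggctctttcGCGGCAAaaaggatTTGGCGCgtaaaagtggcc
RAD51AP1 (chr12:4538790-4538889, plus strand): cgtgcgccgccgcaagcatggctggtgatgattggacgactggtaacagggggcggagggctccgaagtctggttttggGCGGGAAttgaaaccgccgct
CDCA5 (chr11:65084041-65084140, minus strand): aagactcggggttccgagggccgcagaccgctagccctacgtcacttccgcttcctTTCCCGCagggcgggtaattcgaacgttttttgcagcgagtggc
TCF19 (chr6:31158489-31158588, plus strand): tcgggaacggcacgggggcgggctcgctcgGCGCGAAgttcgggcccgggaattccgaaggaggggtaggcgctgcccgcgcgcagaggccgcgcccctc
UHRF1 (chr19:4909401-4909500, plus strand): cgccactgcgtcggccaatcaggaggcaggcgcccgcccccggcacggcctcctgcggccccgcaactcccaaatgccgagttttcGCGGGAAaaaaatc
E2F1 encodes a founding member of the E2F family and itself carried 2 such words. RAD51AP1 serves homologous recombination, CDCA5 is sororin, the protector of cohesin, and UHRF1 brings the maintenance DNA methyltransferase to replicated DNA. Of the 6 genes used to choose the cells, 4 held an E2F word in this window, again without a background, and a pair of these is shown.
PCNA (chr20:5126623-5126722, minus strand): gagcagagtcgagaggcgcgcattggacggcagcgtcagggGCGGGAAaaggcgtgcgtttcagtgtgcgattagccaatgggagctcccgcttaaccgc
GINS2 (chr16:85688955-85689054, minus strand): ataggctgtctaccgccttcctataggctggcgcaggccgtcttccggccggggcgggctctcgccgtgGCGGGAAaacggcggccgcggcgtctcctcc
The windows of E2F1, RAD51AP1, UHRF1 and PCNA also hold the NF-Y word (CCAAT) on either strand, which is not in capitals there. Next, 3 genes of G2 and mitosis that also rose are shown. They were taken from those with both the CHR word (TTTGAA) and the NF-Y word in the window, and both words are in capitals, again on either strand.
KIF11 (chr10:92593030-92593129, plus strand): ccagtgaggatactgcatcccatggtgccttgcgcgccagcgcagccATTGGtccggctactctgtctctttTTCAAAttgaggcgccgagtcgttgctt
MKI67 (chr10:128126424-128126523, minus strand): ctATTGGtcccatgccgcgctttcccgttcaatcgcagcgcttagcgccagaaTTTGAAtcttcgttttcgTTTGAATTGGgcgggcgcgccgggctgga
GTSE1 (chr22:46296770-46296869, plus strand): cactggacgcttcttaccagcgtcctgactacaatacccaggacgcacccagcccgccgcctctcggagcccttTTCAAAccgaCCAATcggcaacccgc
KIF11 is the kinesin that builds the bipolar spindle, MKI67 encodes the proliferation antigen Ki-67 and GTSE1 acts on microtubules and p53 in G2. A match to a word describes the letters only and does not show a bound site.

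The values that chose the cells were continuous across the limit. The 6 genes together had a median of 741, 831, 807 and 718 CPM in members, in the order shScr then shAPC at day 3, then shScr and shAPC at day 7, which is used for all values that follow. The other cells had medians of 55.1, 60.3, 71 and 54 CPM. The lowest cells inside the top 10% stood at 643, 628, 635 and 551 CPM and the highest outside at 635, 626, 633 and 548 CPM, so no gap separated them. RRM2, the small subunit of ribonucleotide reductase, stood at 243, 232, 230.2 and 215 CPM in members and at 36.2, 35.3, 47 and 24.8 CPM in other cells. PCNA, the sliding clamp, stood at 163, 198, 143 and 157 CPM against 36, 45.4, 34 and 32.4 CPM. CLSPN, the checkpoint mediator claspin, stood at 61.1, 80.6, 100.3 and 70.8 CPM against 7.32, 8.05, 15.5 and 8.65 CPM. These differences follow from the choice of cells and carry no test. The limit on CCNB1 set aside 50, 36, 38 and 24 cells of the top 10%, of 76, 58, 94 and 92 in it.

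**Figure D1:**
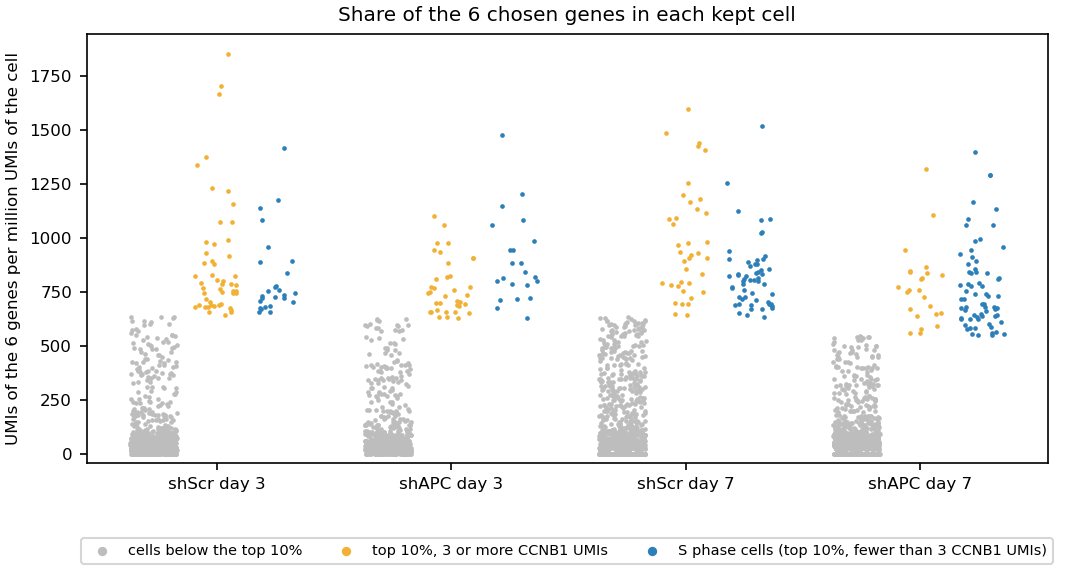
Share of the 6 chosen genes in each kept cell, in CPM of the cell (vertical axis), for the 4 libraries. Grey points are cells below the top 10%, orange points are top cells with 3 or more CCNB1 UMIs and blue points are the 172 S phase cells, which start at 551 CPM in shAPC day 7 and at 629 CPM or more in the other libraries.

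The members held fewer UMIs than the other cells. Their medians were 33995, 50649, 26566 and 25770 UMIs, against 52453, 57459, 28963 and 28457 in the other cells. The cells of the top 10% set aside for CCNB1 had medians of 47973, 59185, 29547 and 29307 UMIs, and a limit on UMIs of 1 gene by its construction keeps cells with fewer UMIs. Its part in the difference was not tested. Of the members, 3 (1 in shScr day 7 and 2 in shAPC day 7) lay among the 5% of cells of their library with the most UMIs. Genes detected did not follow the UMIs. Their medians were 5301, 6645, 4525.5 and 4637.5 in members and 5933, 6535, 4433 and 4324.5 in other cells, lower in members only in shScr day 3. Mitochondrial genes gave medians of 4.0, 4.09, 3.85 and 4.15% of the UMIs of members and of 3.52, 3.72, 3.77 and 4.18% of those of other cells. Summed over cells, members held 786023, 1079777, 1555406 and 1850418 UMIs.

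UMIs of each gene were summed over the S phase cells and over the other cells of each library, and the 8 sums were compared with edgeR's quasi-likelihood test with the library as a block. The 6 chosen genes and CCNB1 were left out. Because the cells were picked in the same libraries, any gene that varies along with the 6 had to differ, and so did a low gene that passed the filter only through one class. The p-values measure how evenly a difference recurred in the 4 libraries, which are not replicates of 1 condition. Of 12747 genes tested, 1324 were higher in S phase cells (10.4%) and 1086 lower (8.52%) at an adjusted p (Benjamini-Hochberg) under 0.05, and 489 of the former and 263 of the latter by 2-fold or more. The split changed with the scaling and with the filter on low counts. With no such filter 1114 were called higher and 1362 lower, a share of 45.0% higher, and the median log2 difference was -0.29 over 21873 genes. With totals in place of TMM the median log2 difference of all genes moved from -0.03 to 0.13, and the genes called higher and lower became 2158 and 503, a share of 81.1% higher in place of 54.9%. Log2 differences are given on the TMM scale and CPM on the scale of totals.

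The largest rises among well-measured genes were in WDR76, CDC6, HIST1H4C, FBXO5, E2F1, RAD51AP1, CDCA5, TCF19, BRCA1, PSMC3IP, CENPU, MYBL2, UHRF1, ATAD2 and CHAF1A, with log2 differences from 2.34 to 3.09. WDR76, a WD-repeat protein, stood at 54.7, 52.8, 27 and 36.7 CPM in S phase cells and at 3.41, 5.50, 4.66 and 3.81 CPM in the other cells. The groups did not overlap, and the log2 difference was 3.09 ± 0.19 (SE, adjusted p = 2.77e-15, edgeR). The genes named here were picked for large changes of the same sign in all 4 libraries, so a lack of overlap adds no support. How many of all genes tested did not overlap was not counted, which also limits such statements below. FBXO5, which encodes the inhibitor EMI1 of the anaphase-promoting complex, stood at 49.6, 54.6, 46.3 and 41.6 CPM against 4.51, 6.85, 10.1 and 6.33 CPM (2.61 ± 0.17). BRCA1, a recombination and fork protection factor, stood at 46.3 to 53.7 CPM against 6.71 to 9.07 CPM (2.45 ± 0.15), again with no overlap. The largest falls were in HIST1H2AC, DDIT3, HMOX1, GDF15, NUPR1, QPRT, MMP2, CYP1B1, ZNF581, EPB41L4A-AS1, PNRC1 and CLIP3, from -2.68 to -1.22.

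Gene lists by role in the cycle are read against that background of 10.4% higher and 8.52% lower.

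**Figure D2:**
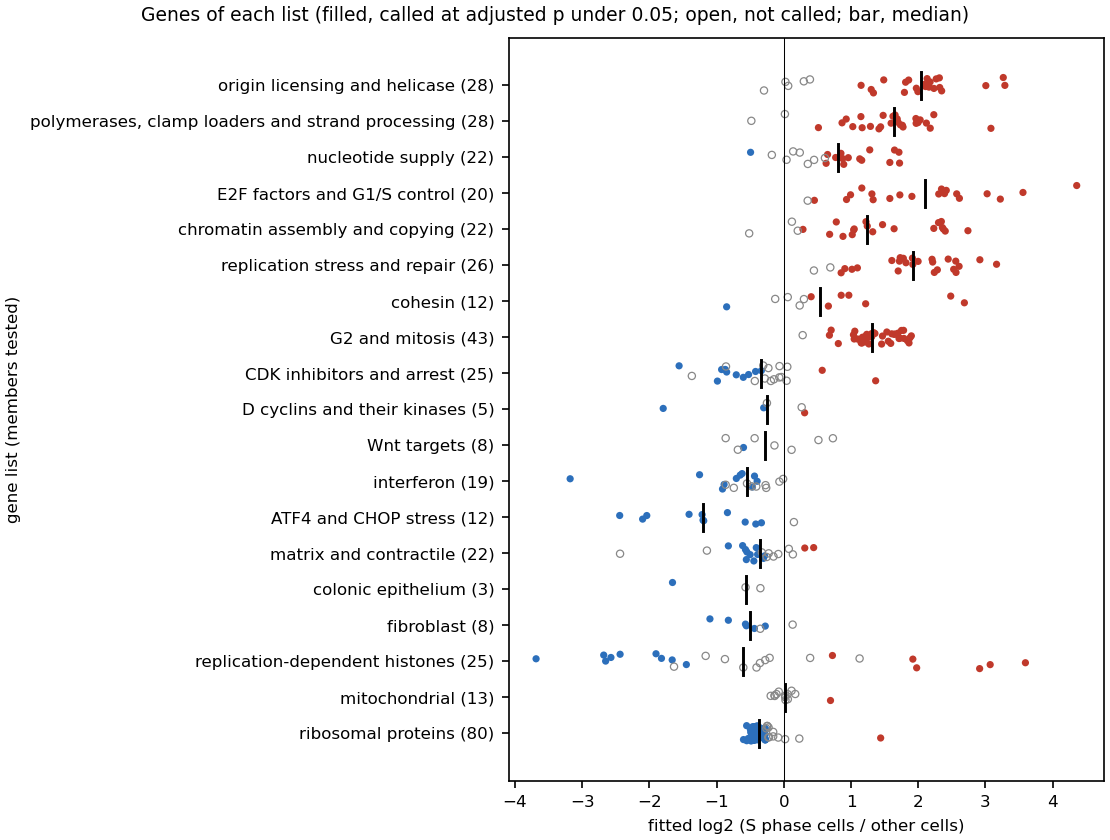
Fitted log2 difference between S phase cells and other cells (horizontal axis) for the tested members of each gene list (number in brackets). Red and blue points were called higher and lower at an adjusted p under 0.05, open points were not called and black bars are medians, which run from 2.11 for E2F factors and G1/S control to -1.20 for ATF4 and CHOP stress.

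In origin licensing and the helicase 23 of 28 genes rose and none fell, with a median log2 difference of 2.04 against -0.03 for all genes. CDC6, which loads the MCM ring together with CDT1, stood at 31.8, 50.9, 43.1 and 44.3 CPM in S phase cells and at 3.83, 6.22, 5.46 and 3.66 CPM in the other cells (3.01 ± 0.17, adjusted p = 8.08e-16, edgeR). MCM10, a helicase activator, stood at 35.6, 37, 25.7 and 34.6 CPM against 2.47, 3.51, 4.15 and 2.20 CPM (3.27 ± 0.21). Every S phase sum of both genes lay above every sum of other cells. ORC1, the origin recognition subunit that is made anew each cycle, differed by 3.29 ± 0.34, from only 8, 19, 12 and 14 UMIs in members. The ring subunits MCM2 (2.35 ± 0.22), MCM3 (2.09 ± 0.14), MCM4 (2.23 ± 0.15), MCM5 (1.79 ± 0.15), MCM6 (2.14 ± 0.16) and MCM7 (1.86 ± 0.12) all rose, and so did the licensing inhibitor GMNN (2.16 ± 0.13). ORC2 (0.30), ORC3 (0.07), ORC4 (-0.30) and ORC5 (0.02), further origin recognition subunits, were not called, nor was the fork protein TIPIN (0.39).

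Among E2F factors and G1/S control genes 19 of 20 rose, with a median of 2.11. CCNE2, the cyclin E that starts S phase with CDK2, stood at 25.4, 33.3, 16.1 and 11.9 CPM in S phase cells against 1.18, 1.83, 1.89 and 1.30 CPM (3.56 ± 0.27, adjusted p = 4.68e-13, edgeR). E2F1 stood at 42, 48.2, 36 and 46.5 CPM against 4.43, 6.70, 6.95 and 7.35 CPM (2.57 ± 0.17). Neither gene overlapped between the classes. The rarer E2F2 (4.36 ± 0.51) and the repressor E2F8 (3.22 ± 0.61) rested on 4 to 15 and 3 to 6 UMIs per library in members. SLBP, which binds the stem loop of histone mRNA, rose by 1.33 ± 0.12 and TFDP1, the partner of E2F factors, by 0.93 ± 0.10. E2F3 was not called (0.36).

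Of the polymerases, clamp loaders and strand processing genes 26 of 28 rose, with a median of 1.64. EXO1, a 5′ exonuclease, differed by 3.08 ± 0.29 and the clamp loader subunit RFC3 by 2.18 ± 0.17. FEN1, the flap endonuclease, stood at 64.9, 75.9, 60.4 and 64.3 CPM in S phase cells against 9.89, 15.2, 13 and 12 CPM (2.23 ± 0.13). Its range in members was narrow across shRNAs and days. PCLAF, the PCNA-associated factor, stood at 240.5, 176, 283 and 217 CPM against 58.7, 67.3, 104 and 70.2 CPM (1.44 ± 0.10). The accessory subunits POLD4 (-0.48) and POLE4 (0.02) were not called.

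In nucleotide supply 14 of 22 genes rose and 1 fell, with a median of 0.81. RRM1, the large subunit of ribonucleotide reductase, stood at 98, 106, 86.8 and 92.4 CPM against 27.4, 32.4, 24.8 and 20 CPM (1.72 ± 0.12). Thymidine kinase TK1 differed by 1.65 ± 0.11 and the dUTPase DUT by 0.85 ± 0.11. Purine synthesis from small precursors was represented by PAICS, which rose by 0.63 ± 0.10, and by GART (0.36, not called), ATIC (0.14, not called) and PPAT (0.61, not called). SHMT2, the mitochondrial serine hydroxymethyltransferase, fell by 0.50 on the log2 scale (SE 0.12, adjusted p = 0.00308, edgeR), from 69.8, 94, 56.6 and 65 CPM in other cells to 53.4, 68.5, 36.6 and 67.6 CPM in S phase cells. The call was lost with totals as scaling (edgeR adjusted p = 0.0745).

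Of the genes of chromatin assembly and copying 19 of 22 rose, with a median of 1.23. ASF1B, a histone chaperone of dividing cells, rose by 2.74 ± 0.21, whereas its paralog ASF1A was not called (-0.52). EZH2, the methyltransferase of H3K27, rose by 2.40 ± 0.19, UHRF1 by 2.37 ± 0.17 and the assembly factor subunit CHAF1A by 2.34 ± 0.16. H2AFZ, the replacement histone H2A.Z, stood at 1555, 1068, 1799 and 1239 CPM in S phase cells against 439, 457, 706 and 511 CPM (1.24 ± 0.09). The genes of another replacement histone, H3F3A (0.12) and H3F3B (0.21), were not called.

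Histone genes moved in both directions. Most transcripts of replication-dependent histone genes lack the poly(A) tail from which this kit primes, and their sequences are alike, so their counts are uncertain. Of 71 such genes 25 passed the filter on low counts, of which 6 rose and 9 fell. HIST1H4C stood at 1699.7, 921, 1607 and 1321 CPM in S phase cells against 128, 109, 239.8 and 186 CPM in the others (2.91 ± 0.11, adjusted p = 6.73e-21, edgeR), with no overlap. The linker histone genes HIST1H1B (3.60 ± 0.64, 2 to 6 UMIs per library in members) and HIST1H1D (3.07 ± 0.43) and HIST2H2AC (1.92 ± 0.30) also rose. HIST1H2AC moved the other way, with 5.09, 13.9, 12.9 and 17.3 CPM in S phase cells against 25.9, 129, 62.2 and 82.7 CPM (-2.68 ± 0.17, adjusted p = 3.29e-15, edgeR), again with no overlap. The top cells set aside for CCNB1 also had low levels of it, at 3.97, 16.7, 8.89 and 11.7 CPM. HIST1H2AE (-3.69 ± 0.55), HIST2H2BE (-2.65 ± 0.34) and HIST1H4H (-2.57 ± 0.28) were lower as well. The sign of HIST1H2BG (0.72 ± 0.22) turned when the top 5% of cells were taken (-0.27), and its call was lost without shScr day 3 or shAPC day 3.

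**Figure D3:**
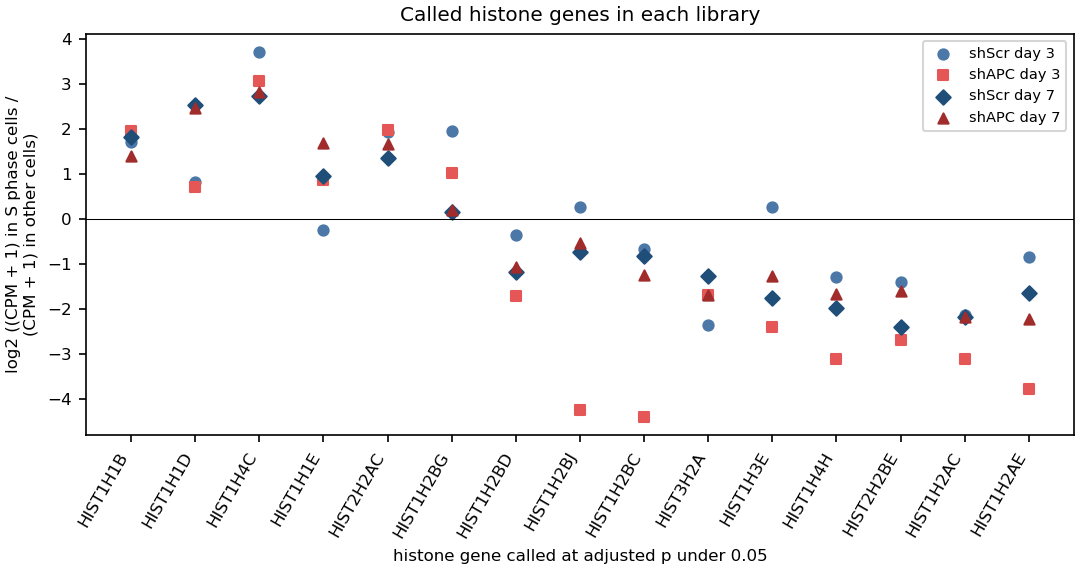
Log2 ratio of CPM, each with 1 CPM added, between S phase cells and other cells (vertical axis) for the histone genes called, with 1 point per library. HIST1H4C and HIST1H2AC stand apart in opposite directions in all 4 libraries.

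In replication stress and repair 24 of 26 tested genes rose, with a median of 1.92. BRIP1, a helicase that works with BRCA1, differed by 3.17 ± 0.28, the recombination factors XRCC2 and RAD54L by 2.92 ± 0.26 and 2.61 ± 0.27, and the deubiquitinase USP1, which acts on PCNA and FANCD2, by 1.91 ± 0.13. PARP1 rose by 1.01 ± 0.11. The kinase ATR (0.45) and PALB2 (0.69), the partner of BRCA2, were not called. Cohesin was split, with 7 of 12 genes higher and 1 lower and a median of 0.53. ESCO2, the acetyltransferase that locks cohesin during S phase, stood at 11.4, 27.8, 12.9 and 13.5 CPM against 1.39, 2.22, 3.13 and 2.04 CPM (2.69 ± 0.28), and sororin (CDCA5) rose by 2.48 ± 0.15. ESCO1, its paralog, fell by 0.85 on the log2 scale (SE 0.27, adjusted p = 0.0212, edgeR), from 4 to 10 UMIs per library in members, and was not called without shAPC day 7 (adjusted p = 0.261) or with totals as scaling (adjusted p = 0.075). The core ring subunits SMC1A and RAD21 rose by 1.22 ± 0.13 and 0.66 ± 0.11.

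Of the genes of G2 and mitosis 42 of 43 rose, with a median of 1.31, although top cells with 3 or more CCNB1 UMIs had been set aside. MKI67 stood at 121, 98.2, 87.4 and 111 CPM in S phase cells against 21.5, 29.7, 33.6 and 18.8 CPM (1.86 ± 0.14), and TOP2A, which untangles replicated DNA, at 479.6, 404, 154 and 206 CPM against 124, 142, 56.8 and 40.2 CPM (1.64 ± 0.11). MKI67 did not overlap between the classes, nor did TOP2A. The median of the list was 2.65 when the limit on CCNB1 was dropped. It was 2.76, with 43 of 43 genes higher, when cells with 3 or more CCNB1 UMIs were left out of both classes. The value of 1.31 thus also depends on the cells set aside being among the other cells.

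The S phase cells were also set beside the top cells set aside, by genes of the cycle. These levels are given with no test, since CCNB1 separated the classes and a cell with more UMIs reaches 3 sooner, and the genes were chosen after their values were seen. In 4 of 4 libraries the S phase cells had more CCNE2 (11.9 to 33.3 CPM against 0 to 4.85), CDC6 (31.8 to 50.9 CPM against 16.3 to 23.3), E2F1 (36 to 48.2 CPM against 17.1 to 29.8), DTL, a substrate receptor that clears CDT1 (24.4 to 41.7 CPM against 9.08 to 19.5), and HIST1H4C (921 to 1699.7 CPM against 481 to 967). In 4 of 4 they had less CCNA2, the cyclin of late S phase and G2 (34.4 to 73.3 CPM against 84.9 to 118), TOP2A (154 to 479.6 CPM against 361 to 926), the mitotic kinase PLK1 (30.6 to 42 CPM against 108 to 128) and CDC20, the activator of the anaphase-promoting complex (41.6 to 68.8 CPM against 138 to 272). GMNN, RRM1 and MCM5 lay on both sides, with median log2 ratios of -0.02, -0.03 and -0.08. Not every gene of DNA synthesis and chromatin was higher in S phase cells than in the cells set aside. TK1 was lower in 4 of 4 libraries, with log2 ratios of -0.50 to -0.03, and so was H2AFZ, with -0.60 to -0.12. All of these genes were above their level in the cells below the top 10% in the S phase cells of 4 of 4 libraries.

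**Figure D4:**
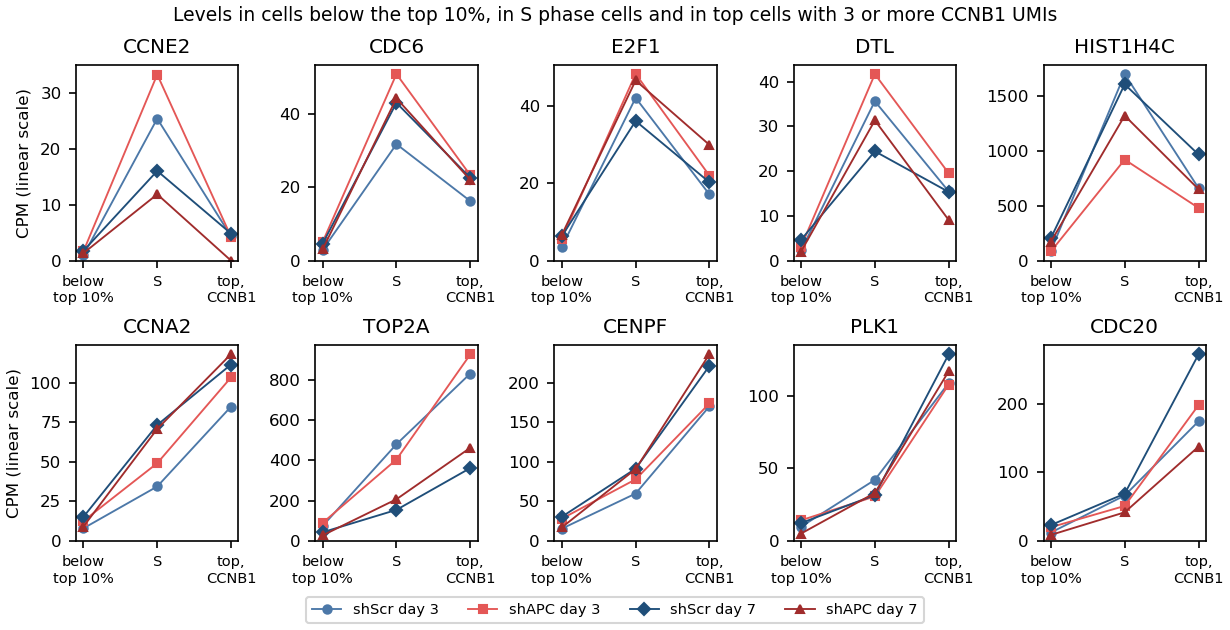
CPM (vertical axes, separate for each gene) of cell cycle genes in cells below the top 10%, in S phase cells and in top cells with 3 or more CCNB1 UMIs, with 1 line per library. CCNE2 peaks in S phase cells (11.9 to 33.3 CPM against 0 to 4.85) and PLK1 in the cells set aside (30.6 to 42 CPM against 108 to 128).

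Among CDK inhibitors and arrest genes 2 of 25 rose and 10 fell, with a median of -0.33. CDKN2B, the inhibitor p15 of CDK4 and CDK6, stood at 5.09, 3.70, 6.43 and 2.70 CPM in S phase cells against 13.2, 7.39, 15.7 and 9.32 CPM (-1.56 ± 0.27, adjusted p = 4.33e-05, edgeR). Inhibitors of the same family went the other way, p18 (CDKN2C) by 1.37 ± 0.19 and p19 (CDKN2D) by 0.57 ± 0.19, the latter not called without shScr day 7 or shAPC day 7, and p16 (CDKN2A) was not called (0.04). CDKN1A, the p53 target p21, stood at 401, 505, 536 and 683 CPM against 522, 648, 538 and 649 CPM. It was called lower (-0.33 ± 0.10, adjusted p = 0.0103, edgeR), yet in shAPC day 7 S phase cells had more CPM than the other cells, and the call was lost without shScr day 3 (adjusted p = 0.129) and with totals as scaling (adjusted p = 0.208). The list had 6 lower calls without shAPC day 3, 6 with totals and 1 without the library block. Of the D cyclins CCND2 was called lower (-1.80 ± 0.26), at 22.9, 3.70, 5.14 and 10.3 CPM against 16, 28.4, 19.8 and 46.5 CPM, with the opposite direction in shScr day 3. CCND1 was called lower at -0.30 ± 0.09 and lost the call without shScr day 3 or shAPC day 7, and CDK4, of which the line carries an added copy, was called higher at 0.31 ± 0.11 and lost that call without any one of shScr day 3, shScr day 7 and shAPC day 7.

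Most genes of the stress list were lower in S phase cells. Of 12 targets of ATF4 and CHOP, factors of the integrated stress response, 11 fell and none rose, with a median of -1.20, and 8 had fewer CPM in S phase cells in all 4 libraries. Over all genes, 812 of the 1086 called lower were also lower in all 4, so that count adds little to the calls. The share among all genes tested was not counted. DDIT3, which encodes CHOP, stood at 11.4, 13.9, 10.9 and 13 CPM in S phase cells and at 16.4, 183, 50.9 and 35.5 CPM in the other cells (-2.44 ± 0.22, adjusted p = 6.92e-11, edgeR). Its level was nearly even in the S phase cells of all libraries, from 9, 15, 17 and 24 UMIs, while that of other cells spanned a wide range. The top cells set aside for CCNB1 had 9.92, 9.53, 10.5 and 7.79 CPM, so the low level of DDIT3 was not particular to S phase cells. HMOX1, haem oxygenase 1, stood at 5.09, 20.4, 3.86 and 12.4 CPM against 23, 80.1, 14.5 and 46 CPM (-2.10 ± 0.18), lower in all 4 libraries. NUPR1, a stress-induced chromatin protein, stood at 67.4, 61.1, 54 and 38.4 CPM against 164, 265, 145 and 102 CPM (-1.74 ± 0.12), and SQSTM1, the autophagy receptor p62, at 322, 522, 269 and 317 CPM against 735, 1083, 580.1 and 547 CPM (-1.20 ± 0.10). Both were lower in every library. TRIB3 fell by 2.04 and the secreted GDF15 by 1.96 on the log2 scale. ATF3, another stress-induced factor, was called lower (-1.41 ± 0.41), yet the libraries were split. It stood at 2.54, 11.1, 0 and 8.65 CPM in S phase cells against 0.997, 46.1, 16.2 and 3.03 CPM, with more CPM in S phase cells of shScr day 3, from 2 UMIs, and of shAPC day 7, where the log2 ratio was 1.51 (95% interval 0.64 to 2.30). HSPA5, the endoplasmic reticulum chaperone BiP, was not called (0.15). Without shAPC day 3 the list had 8 lower calls and a median of -0.77. It had 7 lower calls and 1 higher with totals as scaling, 5 lower without the library block and 6 in cells thinned to 5000 UMIs.

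Of the interferon genes 10 of 19 tested fell and none rose, with a median of -0.55, and without the library block 0 were called. ISG15, a ubiquitin-like protein induced by interferon, stood at 197, 785, 361 and 116 CPM in S phase cells against 264, 1206, 288 and 135 CPM (-0.40 ± 0.11, adjusted p = 0.0079, edgeR). It was lower in S phase cells of 3 libraries and higher in shScr day 7, and the call was lost without any one of shScr day 3, shAPC day 3 and shAPC day 7. CXCL10, a chemokine, had 0, 5, 0 and 0 UMIs in S phase cells and 93, 1113, 54 and 21 in the other cells, and in shAPC day 3 the log2 ratio was -2.85 (95% interval -4.48 to -1.62). The interval covers counting error of the summed UMIs only, not the spread between cells, of which 22 were S phase cells. IFNB1, interferon beta, had no UMI in S phase cells. In shAPC day 3 it had 829 UMIs in 2.86% of the other cells, and 0 of 22 S phase cells allows a share of cells with an IFNB1 UMI of up to 13.6%, so a difference from the other cells was not detectable at this number of cells.

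Of the matrix and contractile genes 2 of 22 tested rose and 11 fell, with a median of -0.36. COL1A1 and COL1A2, the chains of type I collagen, fell by 0.57 and 0.83 on the log2 scale, COL1A2 from 636, 819, 488 and 1163 CPM in other cells to 427, 560.3, 343 and 599 CPM in S phase cells. CYR61 and CTGF, secreted targets of YAP, were called higher, by 0.44 ± 0.10 and 0.31 ± 0.10. CYR61 stood at 356, 316, 452 and 278 CPM against 200.1, 189.7, 323 and 204 CPM, higher in every library. The sign for CTGF turned when the limit on CCNB1 was dropped (-0.15) and with cells thinned to 5000 UMIs (-0.12), and its call was lost without shAPC day 3 or shAPC day 7. The genes called lower were 6 without shAPC day 7, 5 with totals as scaling and 0 without the library block.

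Of the ribosomal protein genes 68 of 80 tested fell and 1 rose, with a median of -0.37. With totals as scaling the median was -0.19 and 50 were called lower, and the count was 38 without shAPC day 7, 44 without shScr day 7 and 0 without the library block. RPL39L, a paralog of RPL39, moved against the rest, with 94.1, 104, 113 and 94 CPM in S phase cells against 27.5, 33.5, 42.9 and 29.1 CPM (1.44 ± 0.11, adjusted p = 8.92e-13, edgeR). It was higher in 4 of 4 libraries, with no overlap, and near-identical copies could share its reads. Of the 13 mitochondrial genes 1 was called, MT-ND6, the gene on the light strand, with 128, 135, 154 and 129 CPM against 70.2, 60.5, 86.4 and 82.9 CPM (0.69 ± 0.11), and the median of the 13 was 0.02. With totals as scaling 6 of the 13 were called higher and their median was 0.20.

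Markers that the choice did not use were read for the S phase label and for the labelled cell type. Of 37 further genes of the S phase list that comes with Seurat, 36 were tested and 33 were higher, with a median of 2.08. They were read in the same cells that the 6 genes had chosen, and genes that vary along with the 6 had to differ. In the same comparison 42 of 43 genes of G2 and mitosis rose, so this count does not test the S phase label. Of 8 genes of colonic epithelium, EPCAM, CDH1, KRT20, CDX2 and VIL1 had no UMI in any S phase cell and at most 2 UMIs per library in the other cells. KRT8 and KRT18 were present at 9.0 to 16.5 and 2.16 to 6.36 CPM in S phase cells, and neither was called, while KRT19 fell by 1.67 on the log2 scale from 1 to 3 UMIs per library in members. All 8 fibroblast genes were detected and 6 of them fell (3 without shAPC day 7, 4 without shScr day 3), COL1A1 to 759 to 1171 CPM in S phase cells. PTPRC, CD3E, PECAM1, VWF and CDH5, markers of immune and endothelial cells, had no UMI in S phase cells. CD68, also on the immune list, was detected, with up to 30.2 CPM in other cells. It was called lower in S phase cells (-0.54), and the call was lost with totals as scaling. The labelled colonic epithelium thus lacked defining markers in S phase cells and in the others alike. Among Wnt targets 8 of 17 genes passed the filter and 1 was called, MYC, with 38.2, 47.2, 41.1 and 35.1 CPM in S phase cells against 53.4, 68.4, 52.9 and 47 CPM (-0.61 ± 0.13, adjusted p = 0.000348, edgeR). It was lower in S phase cells of every library.

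E2F words were counted in the RefSeq promoters of protein-coding genes, from 250 bases before to 50 bases after the start. They were in 35.7% of 1076 promoters of genes called higher, in 39.9% of 381 promoters of those higher by 2-fold or more, in 21.1% of 9641 promoters of genes tested and in 17.1% of 15843 promoters of the whole table. A promoter was found for 83.5% of the genes called higher and 78.9% of those called lower, so no count is given for the latter. Among the lists 15 of 25 licensing promoters (60%) and 14 of 23 polymerase promoters (60.9%) held one, against 2 of 19 (10.5%) for nucleotide supply and 9 of 37 (24.3%) for G2 and mitosis. In the 250 bases before the start alone, these came to 9 of 25 (36%), 9 of 23 (39.1%), 2 of 19 (10.5%) and 6 of 37 (16.2%), against 17.9% of genes tested. The CHR word was in 25 of the 37 promoters of G2 and mitosis (67.6%), as in those of KIF11, MKI67 and GTSE1 printed above, in 16.6% of those called higher and in 9.50% of those tested, and without the 50 bases after the start in 20 of the 37 (54.1%), in 13.0% and in 8.27%. The NF-Y word was in 73.0% of the promoters of G2 and mitosis and in 36.9% of those tested. It was also in 60% of licensing, 47.8% of polymerase and 36.8% of nucleotide supply promoters. Of the promoters of genes called higher 46.0% held it, and 51.2% of those higher by 2-fold or more. A CCAAT on the other strand can share letters with TTGGCGC, so these counts overlap. Promoters of genes called higher held 65.5% G and C, against 64.7% in genes tested.

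How many cells were in S phase could not be read from a top share fixed in each library, so a common value was applied. Each kept cell was thinned to 5000 UMIs, which left out 1 cell of shAPC day 3, and cells with at least 3 UMIs of the 6 genes and fewer than 3 of CCNB1 were counted. In shScr 88 of 765 cells passed at day 3 (11.5%, 95% exact binomial interval 9.33% to 14%) and 140 of 942 at day 7 (14.9%, interval 12.7% to 17.3%). In shAPC 76 of 580 passed at day 3 (13.1%, interval 10.5% to 16.1%) and 108 of 924 at day 7 (11.7%, interval 9.69% to 13.9%). After thinning the limit on CCNB1 set few cells aside. When it was dropped, 92 and 80 cells passed in shScr and shAPC at day 3, and 151 and 109 at day 7. These shares thus take in cells of the kind set aside above, and are not shares of the S phase cells as chosen there. The intervals, which cover counting error only, overlapped between the shRNAs on both days. shAPC minus shScr was 1.60 percentage points at day 3 and -3.17 at day 7. By the 37 further S phase genes these differences were 5.83 and -2.43 points, and at day 3 the intervals did not overlap (11.2%, interval 9.09% to 13.7%, in shScr and 17.1%, interval 14.1% to 20.4%, in shAPC). With no thinning the 6 genes gave differences of 0.22 and -0.53 points. The difference between days was 3.36 points in shScr and -1.42 in shAPC, and the latter changed sign at 2000 UMIs (0.43) and with no thinning (1.80).

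Between shRNAs, S phase cells were compared by the ratio of CPM with 95% conditional binomial intervals, and since each shRNA and day had 1 library, no test was made. Among genes with at least 20 CPM in either library, 283 of 5756 (4.92%) were at least 2-fold higher in shAPC and 102 (1.77%) at least 2-fold lower at day 3, and 103 of 5231 (1.97%) and 124 (2.37%) at day 7. With TMM scaling the split at day 3 was 226 higher and 135 lower, 62.6% in place of 73.5% higher. The split at day 7 changed with the minimum level, to 276 higher and 215 lower at 10 CPM, 1261 and 624 with no minimum, and 9 and 33 at 100 CPM, and that at day 3 became 1653 and 1204 with no minimum. The 5 genes highest in shAPC at both days were CDK6, MGAT4B, TGFBI, TSKU and TULP3. CDK6, a kinase of G1, stood at 20.4 CPM in shScr and 76.9 CPM in shAPC at day 3, with a log2 ratio of 1.92 (1.13 to 2.79), and at 25.7 and 74 CPM at day 7, with 1.53 (1.01 to 2.07). In the other cells its ratios were 2.26 and 1.55. TGFBI, a matrix protein induced by TGF-beta, stood at 123 and 353 CPM at day 3, with 1.52 (1.19 to 1.85), and at 171 and 464 CPM at day 7, with 1.44 (1.24 to 1.64), against 0.52 and 1.03 in the other cells. TULP3 at day 3 rested on 1 UMI in shScr against 34 in shAPC, a ratio of 4.63 (2.05 to 9.97). The 5 lowest were CXCL5, TOMM22, OXTR, FGF5 and CD9. TOMM22, a subunit of the mitochondrial import pore, stood at 136 and 32.4 CPM at day 3, with -2.07 (-2.66 to -1.51), and at 143 and 42.7 CPM at day 7, with -1.74 (-2.13 to -1.36). CXCL5, a chemokine, had ratios of -1.93 (-2.63 to -1.26) and -1.96 (-2.39 to -1.54) in S phase cells and of -1.19 and -1.21 in the others. At day 3 its value came to 0.13 when the top 5% of cells were taken.

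Stress and interferon genes were set side by side in both cell classes. DDIT3 had a log2 ratio of 3.47 (3.35 to 3.59) in the other cells at day 3, from 16.4 to 183 CPM, and of 0.28 (-1.01 to 1.65) in S phase cells, from 11.5 to 13.9 CPM. At day 7 the ratios were -0.52 (-0.64 to -0.40) and 0.25 (-0.71 to 1.23). HMOX1 was higher in shAPC in both classes, with 2.0 in S phase cells and 1.80 in the others at day 3, and 1.69 and 1.67 at day 7. ISG15 had the sign of the other cells, with 1.99 (1.75 to 2.25) against 2.19 at day 3 and -1.64 (-1.88 to -1.41) against -1.09 at day 7. ATF3 had 2 UMIs in shScr and 12 in shAPC S phase cells at day 3, a ratio of 2.13 (-0.04 to 5.33). It had 0 and 16 UMIs at day 7, at least 4.48-fold higher when the 0 was set to 3 counts, while the ratio in the other cells was -2.42. Whether the ratios differ between the classes was not tested.

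Genes of the cycle, added after their values were seen, were compared between shRNAs within S phase cells. At day 3 CDC6 was at 0.68 (-0.03 to 1.42), MCM10 at 0.06 (-0.68 to 0.81), CCNE2 at 0.39 (-0.44 to 1.26) and E2F1 at 0.20 (-0.46 to 0.87), and at day 7 they were at 0.04, 0.43, -0.43 and 0.37, each with an interval that includes 0. HIST1H4C was lower in shAPC, with -0.88 (-1.0 to -0.77) at day 3 and -0.28 (-0.36 to -0.20) at day 7. PTTG1, securin, was at -0.64 (-1.01 to -0.27) and -0.60 (-0.84 to -0.37) in S phase cells and at 0.44 and -0.92 in the other cells. CDKN1A was higher in shAPC at both days, by 0.33 (0.13 to 0.54) and 0.35 (0.22 to 0.48), though at day 3 its value was -0.01 when the top 20% of cells were taken. CCND1 (0.11 and 0.05) and MYC (0.31 and -0.23) had intervals that include 0. AXIN2, a Wnt target and brake on the pathway, had no UMI in S phase cells of either shScr library, 2 in shAPC day 3 and 5 in shAPC day 7, and in the other cells its log2 ratios were 2.17 and 4.85.

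**Figure D5:**
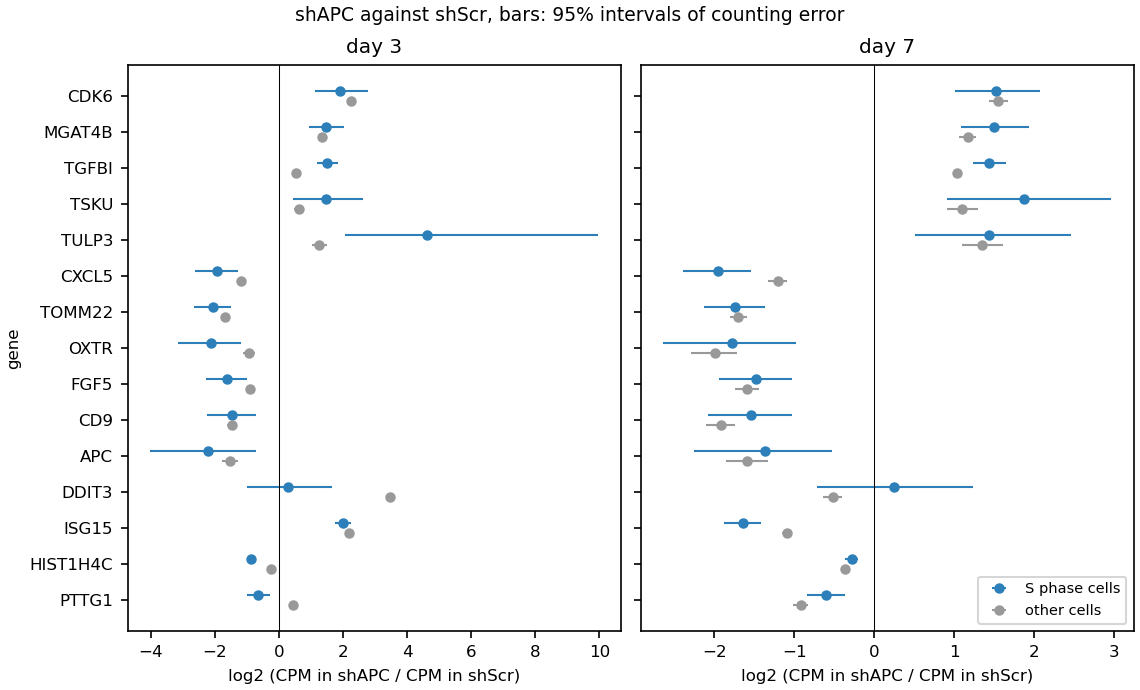
Log2 ratio of CPM between shAPC and shScr (horizontal axes) at day 3 (left) and day 7 (right) for named genes, in S phase cells (blue) and other cells (grey), with 95% intervals of counting error. DDIT3 at day 3 is at 0.28 in S phase cells and 3.47 in the others, while CDK6 and TOMM22 have the same sign in both classes.

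Between days, 122 of 5422 genes (2.25%) were at least 2-fold higher at day 7 than at day 3 in S phase cells of shScr and 195 (3.6%) lower, and in shAPC 45 of 5607 (0.803%) were higher and 226 (4.03%) lower. The split depended on the scaling and, in shAPC, on the minimum level, with 964 higher and 1001 lower where none was set. With TMM it was 156 higher and 138 lower in shScr (53.1% higher in place of 38.5%) and 77 and 143 in shAPC (35.0% in place of 16.6%), and the median of all genes in shAPC was -0.19 with totals. TOP2A was lower at day 7 in S phase cells of both shRNAs, going from 479.6 to 154 CPM in shScr and from 404 to 206 CPM in shAPC. ISG15 went from 785 to 116 CPM in shAPC and from 197 to 361 CPM in shScr.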

How the data were processed

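The authors counted reads with Cell Ranger against GRCh38 and deposited, per library, a matrix of UMI counts per gene and cell barcode, in which reads of the same molecule are counted once. The labels name version 3.0.2, and the file headers give 3.0.2 for shScr and 3.0.0 for shAPC. No batch correction or imputation was applied to these counts, and 0 columns of the files belonged to no sample.

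Cells with at least 2000 genes and under 5% mitochondrial UMIs were kept. Members were the top 10% of all kept cells of a library by the summed share of the 6 genes, less those with 3 or more CCNB1 UMIs. No doublet caller was run, and the cells with the most UMIs were left out in an alternative. Members and gene lists were chosen with earlier results of these data known. Sums per library and class were tested with edgeR 4.0.16 (R 4.3.3; TMM, filterByExpr, library and class as terms). The 4 libraries are single libraries of 4 groups, so p-values measure the spread between them. Ratios between libraries were not tested, used 1 CPM as pseudocount for counts of 2-fold changes, and have exact intervals that cover counting error only. Genes named were, over all genes, the 15 highest and 12 lowest among those called with the same direction in all 4 libraries and a mean of at least 20 CPM, per list the 3 largest and 2 most abundant and those against the list's direction, and between shRNAs the 5 most changed each way on both days. Other named genes were fixed in the lists or chosen after their values were seen. DESeq2 1.42.0, other scalings, filters and choices of cells were alternatives. On simulated counts for 12754 genes, 40 of 43 genes changed by a log2 of 2 were recovered and 38 of 41 at 1.5. At 1 there were 24 of 38, at -1 19 of 39 and at -1.5 24 of 39, with 5 false calls. The simulated libraries differed only in their totals, and no cells were picked by their values. The false calls are therefore not the error rate of the test on these data. Python 3.11.15, numpy 2.4.6, scipy 1.17.1 and matplotlib 3.10.9 were used.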

Additional observations from a re-analysis of the deposited data

Results flagged for a closer look

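The log2 ratios of S phase cells to other cells of TGFBI, TSKU and CCDC85B had opposite signs under the shRNAs, as point values, and the difference was not tested. TGFBI stood at -0.93 (95% interval -1.24 to -0.64) in shScr day 3 and -0.24 (-0.43 to -0.07) in shScr day 7, and at 0.06 (-0.09 to 0.21) in shAPC day 3 and 0.16 (0.06 to 0.26) in shAPC day 7. Its averages were 0.11 in shAPC and -0.59 in shScr, a difference of 0.70. TSKU, a secreted leucine-rich protein, stood at -0.40 (-1.47 to 0.49), -0.74 (-1.75 to 0.12), 0.45 (-0.05 to 0.92) and 0.03 (-0.42 to 0.45) in the same order, and each of these intervals includes 0. Its averages were 0.24 and -0.57, a difference of 0.81. CCDC85B stood at 0.47 (0.26 to 0.67), 0.01 (-0.14 to 0.16), -0.24 (-0.45 to -0.03) and -0.20 (-0.34 to -0.06), with averages of -0.22 and 0.24 and a difference of -0.46. The value of TGFBI in shAPC day 3 and that of CCDC85B in shScr day 7 also have intervals that include 0, which cover counting error only. CCDC85B was chosen after its values were seen.

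Barcodes left out for their mitochondrial share also held S phase transcripts. Among those with at least 2000 genes, thinned to 5000 UMIs, the common value was passed by 20.0% of 115 in shScr day 3, by 20.5% of 127 in shAPC day 3, by 9.23% of 520 in shScr day 7 and by 5.41% of 1220 in shAPC day 7. These barcodes entered no comparison.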

How the results depend on the processing

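Genes called higher in S phase cells (1324) became 2158 with totals as scaling, 618 without the library block, 2069 with no CCNB1 limit, 851 with the top 5% of cells and 657 with cells thinned to 5000 UMIs. Genes called lower (1086) became 669 with DESeq2, 503 with totals, 183 without the library block, 1902 with no CCNB1 limit, 1708 with the top 20% and 534 with thinned cells. Leaving out 1 library gave 945 to 1156 higher and 633 to 977 lower, with 633 without shAPC day 7. Of 1811 values of 108 named genes 1642 kept direction and side of the threshold, 136 lost the call, 16 gained it and 17 reversed. The reversed log2 values were, for POLE4, -0.033 with no filter on low counts and -0.00061 with the top 20%, and for CDKN2A -0.0074 and -0.012. Leaving out 1 library gave POLE4 from -0.064 (without shAPC day 7) to 0.060, CDKN2A from -0.016 (without shScr day 7) to 0.10 and DKK1 from -0.042 (without shAPC day 3) to 0.23. CD44 came to 0.034, MT-CO1 to 0.036 and MRPL36 to 0.069 with totals. With no CCNB1 limit MRPL36 came to 0.091, CTGF to -0.15 and TIMP1 to 0.21. TIMP1 came to 0.0092 and HIST1H2BG to -0.27 with the top 5%, HSPA5 to -0.015 with the top 20% and CTGF to -0.12 with thinned cells. Between shRNAs at day 3 CXCL5 came to 0.13 with the top 5%, APC to 0.80 with thinned cells and CDKN1A to -0.011 with the top 20%.

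Genes that differed by 2-fold or more between shRNAs at day 3, at day 7, between days in shScr and between days in shAPC were 385, 227, 317 and 271. They became 145, 81, 102 and 116 with a pseudocount of 10 CPM, 834, 491, 720 and 577 with a minimum of 10 CPM, 43, 42, 45 and 50 with a minimum of 100 CPM, and 2857, 1885, 2912 and 1965 with no minimum. Shares of cells past the common value, in the order shScr and shAPC at day 3, then shScr and shAPC at day 7, were 24.4%, 24.8%, 27.5% and 25.2% at 2000 UMIs, 9.30%, 9.81%, 12.2% and 8.94% at 10000 UMIs, and 3.40%, 3.61%, 5.94% and 5.41% with no thinning. The 37 further S phase genes gave 17.1% in shAPC day 3, against 11.2% in shScr day 3. E2F words were in 27.9% and CHR words in 13.0% of promoters of genes called higher in the 250 bases before the start, and in 17.9% and 8.27% of promoters of genes tested. The cause of these changes was not tested. Members held 19.0 to 46.0 UMIs of the 6 genes per cell in the median, which limits genes of few UMIs.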
